A study of Homo sapiens
Rattus norvegicus and Homo sapiens with 10 samples.

Results

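Transforming growth factor beta (TGF-beta) is a secreted signal that cells store outside themselves in an inactive form. Its 3 ligands are made as precursors, cut by furin-like proteases and held latent by their own propeptides, which latent TGF-beta binding proteins anchor in the matrix. Released ligand joins a type II and a type I receptor kinase, the receptors phosphorylate SMAD2 and SMAD3, and these enter the nucleus with SMAD4 and switch on target genes that include their own brakes, SMAD7 and SKIL. In glioblastoma the pathway is known for invasion, matrix production and the damping of immune attack, and TGF-beta 2 was purified early on from the medium of glioblastoma cells.

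The 10 genes described here are the ligands TGFB1, TGFB2 and TGFB3, the receptors TGFBR1, TGFBR2 and TGFBR3, the signal carrier SMAD3, the feedback inhibitors SMAD7 and SKIL, and the matrix protein LTBP2. They were taken by gene name from the 62754 genes of the deposited table, and all 10 names were found there, each in 1 row. The cells were U251N, an established human glioblastoma line, grown in the brains of adult female RNU/RNU rats, whose immune defect lets a human graft grow. There were 3 recurrent tumours, which had regrown once a laser fibre guided by diffusion-weighted magnetic resonance had heated and destroyed them (the Visualase form of LITT, laser interstitial thermal therapy), and 3 primary tumours that were never ablated. Control brains labelled tumour-free gave 3 libraries, of which control replicate 1 is labelled a failed graft and control replicates 2 and 3 procedural controls, and 1 further library came from the line in culture. All in vivo groups share the same strain and sex, all tumours come from the same cell line, and it is not stated whether any libraries share an animal, in which case the p-values would partly reflect technical spread.

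Total estimated counts ran from 20321590 to 25299612 in recurrent tumours, from 25316552 to 39714714 in primary tumours and from 1358753 to 4158124 in controls, with 65058642 in culture. The graft share of reads was 35.1% ± 6.84 in recurrent tumours and 50.8% ± 11.9 in primary tumours (SD, n = 3 each), against 0.33%, 0.55% and 4.9% in the controls. Structural small RNAs took 92.1%, 89.4% and 31.2% of the counts in control replicates 1, 2 and 3, so little of the first and second control was messenger RNA. All 8 glioblastoma markers checked (GFAP, VIM, NES, S100B, SOX2, CD44, EGFR and CHI3L1) had counts in the tumours, where they summed to 7572 to 7759 CPM in recurrent and 7473 to 9100.4 CPM in primary tumours, against 9519 CPM in culture (CPM, read counts scaled to a common library size, here by the plain library total). Of the 8, GFAP, VIM and S100B were lower in recurrent tumours at an unadjusted p under 0.05, with log2 fold changes of -0.81, -0.33 and -0.75 (edgeR adjusted p = 0.267, 0.583 and 0.590). GFAP and VIM did not overlap between the groups. Over all tested genes, 3.79% were lower at that unadjusted p and 7.85% were apart and lower. The same 8 markers also had counts in the controls, where they summed to 97.9, 502 and 6293 CPM in control replicates 1, 2 and 3. Outside structural small RNAs they stood at 8288 to 8778 CPM in recurrent and 8697 to 9682 CPM in primary tumours, against 1242, 4738.5 and 9144 CPM in the controls. The library labelled control replicate 3 thus held these markers at tumour level, and results that rest on it are also given without it. Of 10 markers of host microglia and macrophages, 7 were at 0 in all 6 tumours, among them AIF1, PTPRC and C1QA, and all 5 blood markers were at 0. The same 7, ITGAM and all 5 blood markers were also at 0 in the control brains, so these zeros do not measure host cells. The 10 markers summed to 24.0 to 27.5 CPM in recurrent and 22.6 to 28.8 CPM in primary tumours, against 22.9 CPM in culture. Host oligodendrocyte markers summed to 124 to 201 CPM in recurrent and 162 to 180 CPM in primary tumours, against 135 CPM in culture. Host neuron markers summed to 242 ± 28.9 CPM in recurrent and 206 ± 23.6 CPM in primary tumours (SD, n = 3 each), against 99.96 CPM in culture, and their part in the results was not tested.

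The ligand genes resemble each other where they encode the mature signal. The stretch that spans the cut between propeptide and mature ligand is shown for TGFB1 and TGFB3 because it is where the products are both released and told apart. It was read from the GENCODE transcripts on GRCh38, runs 5′ to 3′ across the junction of exons 5 and 6 of 7, and has in capitals the 12 bases that encode the furin recognition motif.
TGFB1: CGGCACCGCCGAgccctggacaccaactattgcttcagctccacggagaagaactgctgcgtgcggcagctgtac
TGFB3: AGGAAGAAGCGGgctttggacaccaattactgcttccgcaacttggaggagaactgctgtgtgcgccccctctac
These stretches lie at chr19:41332245-41341920 and chr14:75961040-75963353 (both minus strand), introns included. Over the 336 coding bases of the mature ligand, TGFB1 shared 75% with TGFB3. The longest run of identical bases between them was 14, shorter than the reads of 100 bases, so reads from this stretch differ between these genes.

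Of the ligands, TGFB1 was the most abundant in every tumour. Its gene lies on chromosome 19 (41301587 to 41353911, minus strand, GRCh38). TGFB1 stood at 248, 182 and 165 CPM in recurrent tumours, against 263, 245 and 278 CPM in primary tumours and 122 CPM in culture. These and all further CPM of tumours and culture refer to totals scaled by the trimmed mean of M-values (TMM) over those 7 libraries. Recurrent replicate 1 lay within the primary range, and the other recurrent tumours lay below every primary tumour. The log2 fold change was -0.39 (SE 0.18; edgeR quasi-likelihood test, adjusted p = 0.594), which did not pass.

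TGFB2, on chromosome 1 (218346235 to 218444619, plus strand), stood at 99.1, 94.8 and 87.7 CPM in recurrent tumours, against 85.7, 57.1 and 93.4 CPM in primary tumours and 219 CPM in culture. The groups overlapped, primary replicate 2 was the lowest tumour, and the culture was above every tumour. The log2 fold change of recurrent over primary was 0.26 (SE 0.18; edgeR adjusted p = 0.692).

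TGFB3, on chromosome 14 (75958099 to 75982991, minus strand), stood at 81.8, 38.1 and 42.0 CPM in recurrent tumours, against 60.4, 58.7 and 69.5 CPM in primary tumours and 10.8 CPM in culture. The recurrent tumours held both the highest and the lowest values, and all 6 tumours were far above the culture. The log2 fold change was -0.21 (SE 0.26; edgeR adjusted p = 0.821), and it ran from -0.65 without recurrent replicate 1, the highest, to -0.022 without recurrent replicate 2, the lowest (edgeR adjusted p = 0.190 and 0.989).

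**Figure D1:**
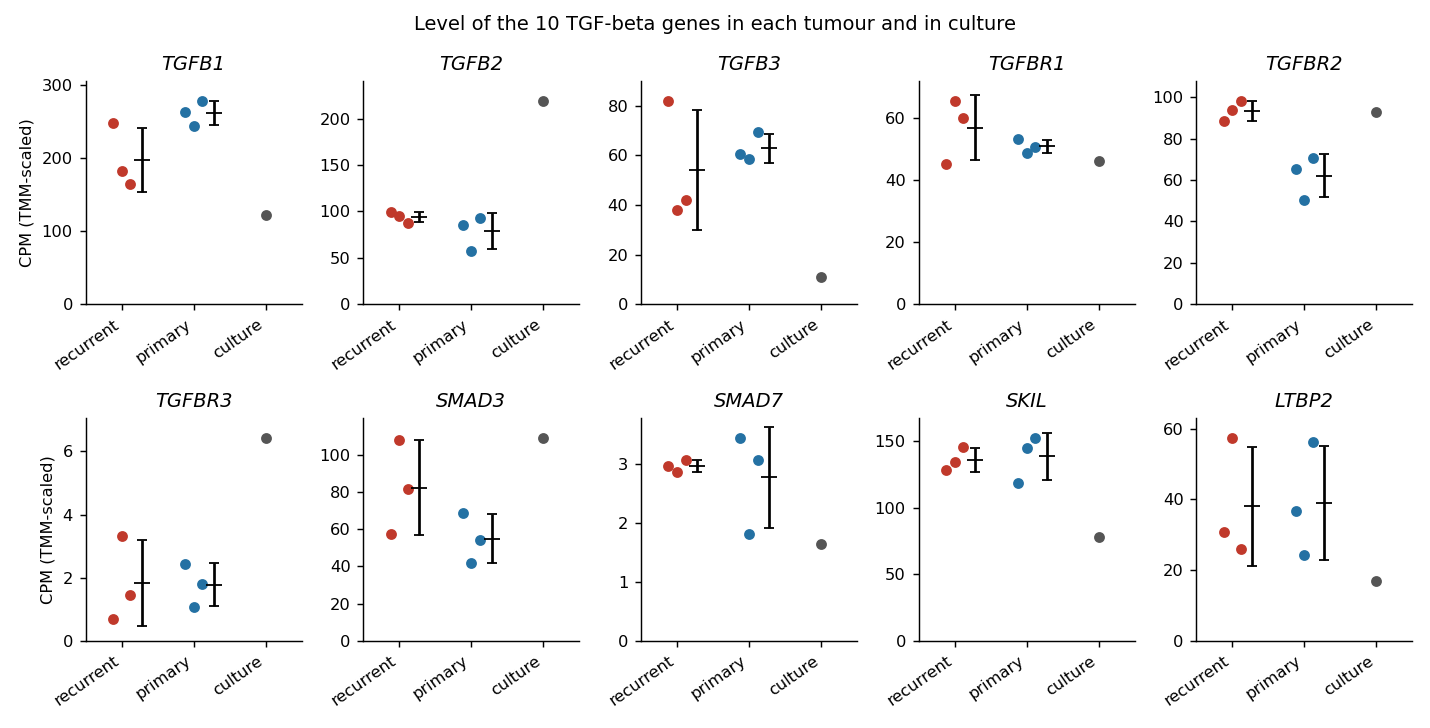
Level of each of the 10 genes (y axis, CPM on TMM-scaled totals, from 0) in the recurrent tumours, the primary tumours and the culture; each point is 1 library and the bars are the mean ± SD of 3 tumours. TGFBR2 is the gene whose groups do not overlap, at 88.5 to 98.01 CPM in recurrent and 50.5 to 70.8 CPM in primary tumours, and TGFB2 and TGFB3 stand apart from the culture in opposite directions.

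The make-up of the ligand RNA, in reads per base of the longest coding transcript, does not depend on how libraries are scaled. TGFB1 made up 64.3% ± 1.49 of it in recurrent and 70.1% ± 1.67 in primary tumours (SD, n = 3 each), against 48.1% in culture. TGFB2 made up 13.8%, 18.8% and 18.6% in recurrent tumours, against 12.5%, 9.2% and 12.6% in primary tumours and 47.2% in culture. TGFB3 made up 18.6% ± 3.93 in recurrent and 18.5% ± 0.714 in primary tumours (SD, n = 3 each), against 4.69% in culture. The TGFB1 and TGFB2 shares did not overlap between recurrent and primary tumours, and no test was made of them. Shares add up to a fixed total, so these are not separate results. In CPM both genes overlapped between the groups, and 15.3% of all tested genes did not overlap in CPM in either direction. With all annotated exons as the length, the TGFB3 share of the tumours was 11.8% ± 1.77 in place of 18.5% ± 2.53 (SD, n = 6), while TGFB1 still led.

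**Figure D2:**
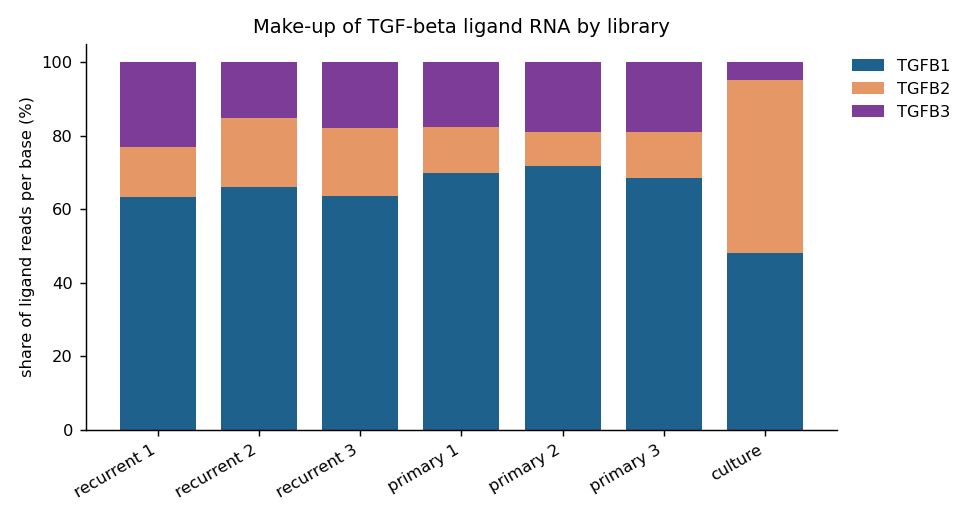
Share of each ligand (y axis, percent of the reads per base of the 3 ligands) in the 3 recurrent tumours, the 3 primary tumours and the culture; each bar is 1 library. TGFB1 makes up 63.2% to 71.9% of the ligand RNA in the tumours, while TGFB1 and TGFB2 are nearly equal in culture at 48.1% and 47.2%.

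Among the receptors, TGFBR2 differed most between the tumour groups without passing the test. It encodes the type II receptor, the kinase that binds ligand and starts the signal (chromosome 3, 30606502 to 30694142, plus strand). TGFBR2 stood at 88.5, 93.8 and 98.01 CPM in recurrent tumours, against 65.2, 50.5 and 70.8 CPM in primary tumours and 92.8 CPM in culture. Every recurrent tumour lay above every primary tumour, and the culture lay inside the recurrent range. The means were 93.5 ± 4.75 CPM in recurrent and 62.2 ± 10.5 CPM in primary tumours (SD, n = 3 each), a log2 fold change of 0.60 (SE 0.15; edgeR unadjusted p = 0.00277, adjusted p = 0.420). TGFBR2 was 1 of the 10 genes with groups that did not overlap, beside 7.43% of all tested genes apart and higher, 7.85% apart and lower, and 15.3% in either direction. The graft share of reads was lower on average in recurrent tumours, at 29.44%, 42.67% and 33.05%, against 42.52%, 45.38% and 64.4% in primary tumours, with ranges that just overlapped. Its part in the TGFBR2 difference was not tested beyond a covariate: with the graft percentage in the fit the TGFBR2 value was 0.76 (edgeR adjusted p = 0.668). In bulk tumour tissue, fewer cells of a type and less RNA per cell cannot be told apart.

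TGFBR1, the type I receptor kinase that phosphorylates SMAD2 and SMAD3 (chromosome 9, 99104038 to 99154192, plus strand), stood at 45.1, 65.4 and 60.1 CPM in recurrent tumours, against 53.1, 48.9 and 50.5 CPM in primary tumours and 46.3 CPM in culture. The lowest tumour, recurrent replicate 1, was just below the culture. The log2 fold change was 0.17 (SE 0.16; edgeR adjusted p = 0.756).

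TGFBR3, or betaglycan, presents ligand, above all TGF-beta 2, to the type II receptor (chromosome 1, 91680343 to 91906335, minus strand). It had only 14, 87 and 36 counts in recurrent tumours, against 63, 25 and 73 in primary tumours and 442 in culture. That is 0.705, 3.34 and 1.46 CPM in recurrent tumours, against 2.44, 1.08 and 1.81 CPM in primary tumours and 6.42 CPM in culture. The groups overlapped, and all 6 tumours lay below the culture. The log2 fold change was 0.06 (SE 0.60; edgeR adjusted p = 0.982), and its sign depended on which tumours were kept: it was -0.71 without recurrent replicate 2 and -0.20 without primary replicate 2.

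Counted per base, TGFBR2 made up 69.4% ± 3.68 of the receptor RNA in recurrent and 62.2% ± 3.42 in primary tumours (SD, n = 3 each), against 71.3% in culture. TGFBR3 made up 0.417% to 1.67% in the tumours, against 3.53% in culture.

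SMAD3 carries the signal from the receptors to DNA (chromosome 15, 67063763 to 67195195, plus strand). It stood at 57.2, 108.0 and 81.7 CPM in recurrent tumours, against 68.4, 42.0 and 54.4 CPM in primary tumours and 109 CPM in culture. The 2 highest tumours were recurrent, but recurrent replicate 1 fell inside the primary range. The log2 fold change was 0.59 (SE 0.24; edgeR unadjusted p = 0.0333, adjusted p = 0.583). Its partners showed smaller differences: SMAD2, which carries the signal in parallel, had a log2 fold change of 0.02 (SE 0.13; edgeR adjusted p = 0.972), and SMAD4, the shared co-SMAD, had -0.07 (SE 0.15; edgeR adjusted p = 0.896).

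The feedback genes and LTBP2 had overlapping values in the tumour groups. SKIL, which encodes the SMAD corepressor SnoN (chromosome 3, 170357678 to 170396835, plus strand), stood at 128, 135 and 146 CPM in recurrent tumours, against 119, 145 and 152 CPM in primary tumours and 78.3 CPM in culture. Its log2 fold change was -0.02 (SE 0.14; edgeR adjusted p = 0.978), with the groups interleaved.

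SMAD7, which blocks the type I receptor (chromosome 18, 48919853 to 48952052, minus strand), was rare, with 59, 75 and 76 counts in recurrent tumours, against 89, 42 and 124 in primary tumours and 113 in culture. That is 2.97, 2.88 and 3.07 CPM in recurrent tumours, against 3.45, 1.81 and 3.08 CPM in primary tumours and 1.64 CPM in culture. The recurrent tumours lay inside the primary range, and the log2 fold change was 0.10 (SE 0.37; edgeR adjusted p = 0.945). Without primary replicate 2, the lowest tumour, it was -0.13.

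LTBP2 belongs to the latent TGF-beta binding proteins but is known as an elastic fibre protein that does not hold latent TGF-beta (chromosome 14, 74498170 to 74612378, minus strand). It stood at 30.8, 57.3 and 25.8 CPM in recurrent tumours, against 36.7, 24.2 and 56.2 CPM in primary tumours and 17.0 CPM in culture. In each group 1 tumour was far above the others, and the log2 fold change was -0.03 (SE 0.34; edgeR adjusted p = 0.982). With the graft percentage in the fit it was 0.73 (edgeR adjusted p = 0.668).

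**Figure D3:**
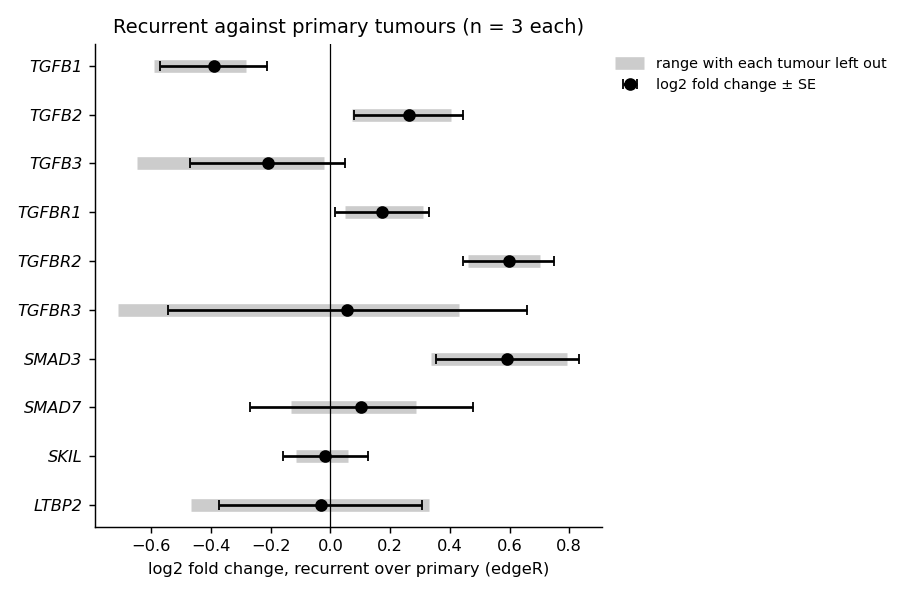
Log2 fold change of recurrent over primary tumours (x axis) for the 10 genes; points with bars are the edgeR estimate ± SE from 3 tumours a group, and grey bands run from the lowest to the highest estimate when 1 tumour at a time was left out. The bands of TGFBR2 (0.46 to 0.70), SMAD3 (0.34 to 0.79), TGFB2 (0.071 to 0.40) and TGFBR1 (0.050 to 0.31) stay above 0, those of TGFB1 (-0.59 to -0.28) and TGFB3 (-0.65 to -0.022) stay below it, and the other 4 cross it.

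Read as a set, 0 of the 10 genes passed edgeR at an adjusted p under 0.05. The background was 0 of 15928 tested genes higher (0.0%) and 1 lower (0.00628%), and an unadjusted p under 0.05 was reached by 731 higher (4.59%) and 604 lower genes (3.79%), or 8.38% together. All 10 were kept by the filter on low counts. TGFBR2 and SMAD3 had an unadjusted p under 0.05, both higher. DESeq2 called 0 of the 10, with 63 genes higher (0.365%) and 42 lower (0.243%) in the whole table, and limma-voom called 0 of the 10 and 0 genes in all. With no filter on low counts, edgeR gave TGFBR2 an adjusted p of 0.0272 and SMAD3 an adjusted p of 0.0266, in a fit that called 227 genes higher (0.752%) and 184 lower (0.61%). Of the 10, 6 lay above 0, beside 49.0% of all tested genes. Their median log2 fold change was 0.08, beside -0.0068 over all tested genes.

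Per kilobase of the longest coding transcript, TGFB1 led in the tumours at 83.1 ± 16.6 RPKM (CPM per kilobase; SD, n = 6), against 44.1 RPKM in culture. TGFB3, SKIL, TGFB2 and TGFBR2 followed at 23.2, 19.1, 17.1 and 16.8 RPKM, and their order changed from tumour to tumour. With all annotated exons as the length, a choice made after seeing the data, TGFB3 was at 11.9 RPKM. SMAD3 came next at 10.99 RPKM, below TGFBR2 in 6 of 6 tumours, and then TGFBR1 at 8.27 RPKM, below SMAD3 in 5 of 6. LTBP2 at 4.49, SMAD7 at 0.65 and TGFBR3 at 0.279 RPKM closed the order, each below the gene before it in 6 of 6 tumours. In culture TGFB2 stood at 43.3 RPKM, next to TGFB1, and TGFB3 at 4.29 RPKM, below TGFBR1 at 7.1 RPKM.

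The tumours were set against the line in culture to see what growth in the brain went with. With 1 culture library there is no replicate check and no test. A gene was counted as higher or lower when the tumour mean differed at least 2-fold and all 6 tumours lay on the same side of the culture. By this rule TGFB3 and LTBP2 were higher in tumours, 2 of the 10, and TGFB2 and TGFBR3 were lower, 2 of the 10, beside 5.76% of 14227 genes higher and 8.48% lower. TGFB3 averaged 58.4 ± 16.5 CPM in tumours (SD, n = 6), 5.4-fold above the 10.8 CPM of culture. LTBP2 averaged 38.5 ± 14.8 CPM in tumours (SD, n = 6), 2.26-fold above culture. TGFB2 averaged 86.3 ± 15.1 CPM in tumours (SD, n = 6), 2.53-fold below culture, and TGFBR3 averaged 1.8 ± 0.96 CPM, 3.56-fold below.

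TGFB1 was just under the 2-fold limit, at 230.1 ± 45.9 CPM in tumours (SD, n = 6), 1.89-fold above culture with 6 of 6 tumours above it. It was past the limit when only the primary tumours were taken, at a log2 ratio of 1.103, against 0.70 for the recurrent tumours alone. SKIL was 1.76-fold and SMAD7 1.75-fold above culture, each in 6 of 6 tumours, but for SMAD7 the direction depends on the host estimate given with the controls. SMAD3 was 1.59-fold below culture, with all 6 tumours below it. The share of all genes with all 6 tumours on the same side of the culture, whatever the fold, was not counted. TGFBR1 and TGFBR2 straddled the culture, with 5 of 6 and 2 of 6 tumours above it. For TGFBR2 the log2 ratio to culture was 0.01 for the recurrent tumours and -0.58 for the primary tumours, which share that library.

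**Figure D4:**
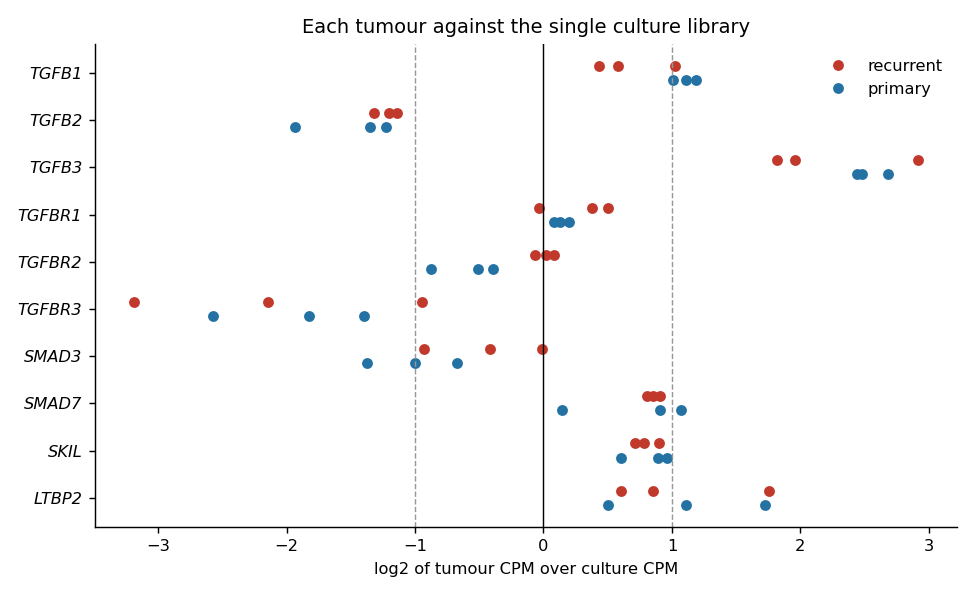
Log2 of the CPM of each tumour over the CPM of the culture library (x axis) for the 10 genes; each point is 1 tumour, the solid line marks equality and the dashed lines a 2-fold difference. All 6 tumours lie beyond the right dashed line for TGFB3 and beyond the left one for TGFB2, and TGFBR2 has the recurrent tumours at the culture level and the primary tumours below it.

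The other pathway genes were read from 5 lists with 84 genes in the table. None passed edgeR between recurrent and primary tumours. Of 27 tested TGF-beta target genes, 9 were above 0 and 18 below 0 (median log2 fold change -0.19), of which 3 above and 8 below had an unadjusted p under 0.05. Over all tested genes, 49.0% lay above 0, and an unadjusted p under 0.05 was reached by 4.59% above and 3.79% below. CCN2, the matricellular protein connective tissue growth factor, stood at 170, 345 and 220 CPM in recurrent tumours, against 152, 152 and 154 CPM in primary tumours (log2 fold change 0.69, SE 0.23; edgeR adjusted p = 0.521). TGFBI, a matrix protein named for its induction by TGF-beta, stood at 1379, 1466 and 1209.5 CPM in recurrent tumours, against 1806, 2181.5 and 2668 CPM in primary tumours (-0.70, SE 0.18; edgeR adjusted p = 0.408). The groups of both genes did not overlap, and they lay in opposite directions. Of the 27 tested targets, 4 were apart and higher and 6 apart and lower, beside 7.43% and 7.85% of all tested genes. The collagen gene COL1A1 and the matrix protein gene POSTN had log2 fold changes of -1.35 (SE 0.28; edgeR adjusted p = 0.276) and -1.01 (SE 0.20; edgeR adjusted p = 0.267). Their groups did not overlap either.

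Of 14 tested negative regulators, 6 were above 0 and 8 below 0 (median -0.08), of which 0 above and 2 below had an unadjusted p under 0.05. This pair were BGN, the proteoglycan biglycan, which binds TGF-beta (-1.83, SE 0.30; edgeR adjusted p = 0.224), and BAMBI, a decoy type I receptor (-0.43, SE 0.18; edgeR adjusted p = 0.588). The corepressor gene SKI had 0.27 (SE 0.21; edgeR adjusted p = 0.711). PMEPA1, a target that dampens SMAD2 and SMAD3, stood at 1042, 767 and 819 CPM in recurrent tumours, against 883, 724 and 947 CPM in primary tumours (0.05, SE 0.18; edgeR adjusted p = 0.941).

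Of 11 tested latency and activation genes, 5 were above 0 and 6 below 0 (median -0.03), with 0 in either direction at an unadjusted p under 0.05. FURIN, the protease that cuts the ligand precursors at the motif shown above, stood at 110.0, 115 and 109 CPM in recurrent tumours, against 101, 58.7 and 105 CPM in primary tumours. Its groups did not overlap, with primary replicate 2 far below the rest (0.34, SE 0.21; edgeR adjusted p = 0.659). FURIN was the 1 gene of these 11 that was apart, beside 7.43% of all tested genes apart and higher. LTBP1, which anchors latent TGF-beta, had -0.07 (SE 0.19; edgeR adjusted p = 0.928), and THBS1, thrombospondin 1, an activator, had -0.14 (SE 0.20; edgeR adjusted p = 0.848). FBN1, the microfibril protein to which latent complexes attach, had 0.28 (SE 0.19; edgeR adjusted p = 0.695), and ITGAV, the integrin chain of the main activators, had 0.22 (SE 0.17; edgeR adjusted p = 0.714).

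Of 16 tested other receptors and SMADs, 12 were above 0 and 4 below 0 (median 0.04), with 0 in either direction at an unadjusted p under 0.05. The activin receptor gene ACVR2B had the smallest p of them (0.56, SE 0.28; edgeR adjusted p = 0.620), followed by the receptor-associated protein gene TGFBRAP1 (0.27, SE 0.17; edgeR adjusted p = 0.661) and the BMP receptor gene BMPR2 (0.15, SE 0.17; edgeR adjusted p = 0.794). Of 9 activin and GDF ligands, 4 were tested, 1 above 0 and 3 below 0. GDF11 had a log2 fold change of -0.07 (SE 0.17), the activin subunit gene INHBB -0.15 (SE 0.62) and GDF15 0.10 (SE 0.60), with edgeR adjusted p of 0.912, 0.953 and 0.966; the fourth was INHBA, named after its values were seen.

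Against the culture, the target list was higher in tumours for 11 of 27 genes and lower for 2 of 27 (median log2 ratio 0.76). By the same rule 5.76% of 14227 genes were higher and 8.48% lower, with a median of 0.0148 over all of them. CCN2 was 2.45-fold and COL1A1 42.2-fold above culture, while TGFBI was 1.19-fold above and did not reach the limit. By this rule 1 of 10 latency and activation genes was higher and 0 lower, and 3 of 14 negative regulators were higher and 1 lower. For the other receptors and SMADs, 0 of 16 were higher and 2 lower. For the activin and GDF ligands, 0 of 2 were higher and 1 lower. From these lists, PMEPA1 was 2.11-fold, BGN 8.26-fold and FBN1 2.5-fold above culture. GDF15, a stress-responsive ligand, was 8.78-fold below culture, and ACVR2B was 2.05-fold below. LTBP1 was 1.66-fold below and did not reach the limit. The 8 host endothelium and pericyte markers summed to 17.2 to 23.3 CPM of the total in recurrent and 14.6 to 39.4 CPM in primary tumours, against 14.5 CPM in culture, with CLDN5 at 0 in all of them, and their part was not tested.

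The controls are labelled tumour-free, but all 3 had counts of the glioblastoma markers, control replicate 3 at tumour level. Whether these counts came from graft cells or from host reads was not tested. In control replicates 1, 2 and 3, TGFB1 had 9, 18 and 1014 counts, TGFB2 had 4, 4 and 279, and SKIL had 1, 14 and 524. TGFB3, TGFBR1 and LTBP2 had 0 counts in control replicate 1 and 5, 10 and 6 in control replicate 2, while control replicate 3 had 193, 177 and 89. TGFBR2 had 5, 6 and 203 counts, SMAD3 had 5, 14 and 150, and TGFBR3 had 0, 0 and 5. A count of 0 allows up to 3 counts, or 2.21 CPM of the total in control replicate 1 and 1.76 in control replicate 2. SMAD7 went the other way, with 53, 16 and 31 counts, and was the most counted of the 10 genes in control replicate 1. Its level was 2.9 to 3.05 CPM of the total in recurrent and 1.66 to 3.51 CPM in primary tumours, against 39.0, 9.4 and 7.46 CPM in the controls. On this scale all 6 tumours lay below all 3 controls, but the share of all genes that do so was not counted. In raw counts the tumours, at 42 to 124, overlapped the controls.

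Relative to the other counts of each library, SMAD7 was lower in tumours than in controls, with a log2 fold change of -6.02 (SE 1.05; edgeR adjusted p = 0.00554). Of 16389 tested genes, 4.5% were called lower and 0.927% higher. The fold change rests on small control libraries. Outside structural small RNAs, control replicates 1, 2 and 3 held 107072, 180225 and 2861834 counts, against 17742746 in recurrent replicate 1, the lowest tumour. No other of the 10 genes passed, and an unadjusted p under 0.05 was reached by 0 of the 10 higher and by SMAD7 alone lower, beside 9.81% and 9.46% of all tested genes. The value was -3.66 without control replicate 1 (edgeR adjusted p = 0.029) and -6.86 without control replicate 3 (edgeR adjusted p = 6.72e-06). On library totals with no TMM scaling it was -2.68 and did not pass (adjusted p = 0.0554). That scaling moves the median of all genes to 1.74, from 0.209 with TMM. The other 9 genes had log2 fold changes of 0.11 to 0.50 with edgeR adjusted p of 0.462 to 0.909, near that median, and 1.37 to 2.17 on library totals, with adjusted p of 0.211 to 0.283. Each of the 9 was above 0 under both scalings, but DESeq2 gave SMAD3 -0.024, TGFB1 was at -0.040 without control replicate 2, and TGFBR1 was at -0.049 without control replicate 1. Without control replicate 3 the median of all genes was 1.15, TGFB1, TGFB2, TGFB3 and SKIL stood at 1.09, 1.43, 1.60 and 1.30 (edgeR adjusted p = 0.0593, 0.0825, 0.207 and 0.0652), and TGFBR2, LTBP2, TGFBR1 and SMAD3 at 0.80, 0.75, 0.51 and -0.13. TGFBR3 then had 0 counts in both remaining controls, so its fitted value of 8.18 depends on the fit's prior count and gives no size (edgeR adjusted p = 0.57).

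From the controls, the host part of a tumour count was estimated with all control counts taken as host. It was the median count per host read over the 3 controls, multiplied by the host reads of the tumour. For SMAD7 this gave 40.2%, 23.7% and 33.4% of the count in recurrent tumours, against 19.6%, 34.8% and 9.29% in primary tumours. For the other 9 genes it gave at most 1.61% in any tumour. With control replicate 3 alone, whose markers were at tumour level, their highest value in any tumour lay between 8.85% for TGFBR2 and 27.3% for TGFBR3. By the median, 2.29% of 11726 genes with a mean tumour count over 100 exceeded 10% in some tumour. With the estimate taken off, SMAD7 stood at 1.78, 2.19 and 2.05 CPM in recurrent tumours, against 2.77, 1.18 and 2.79 CPM in primary tumours. Its log2 ratio of tumours to culture then was 0.37 in place of 0.81. From control replicates 1 and 2 alone, a choice made after seeing the data, the estimate was 76.8%, 45.2% and 63.8% of the SMAD7 count in recurrent tumours, against 37.4%, 66.4% and 17.7% in primary tumours, and at most 1.09% for the other 9 genes. The SMAD7 ratio to culture then turned to -0.18. The estimate rests on 3 controls that differ widely for SMAD7, from 0.491 to 1.64 CPM of host reads. With the highest of them, the estimate reached 118% of the SMAD7 count in a tumour.

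**Figure D5:**
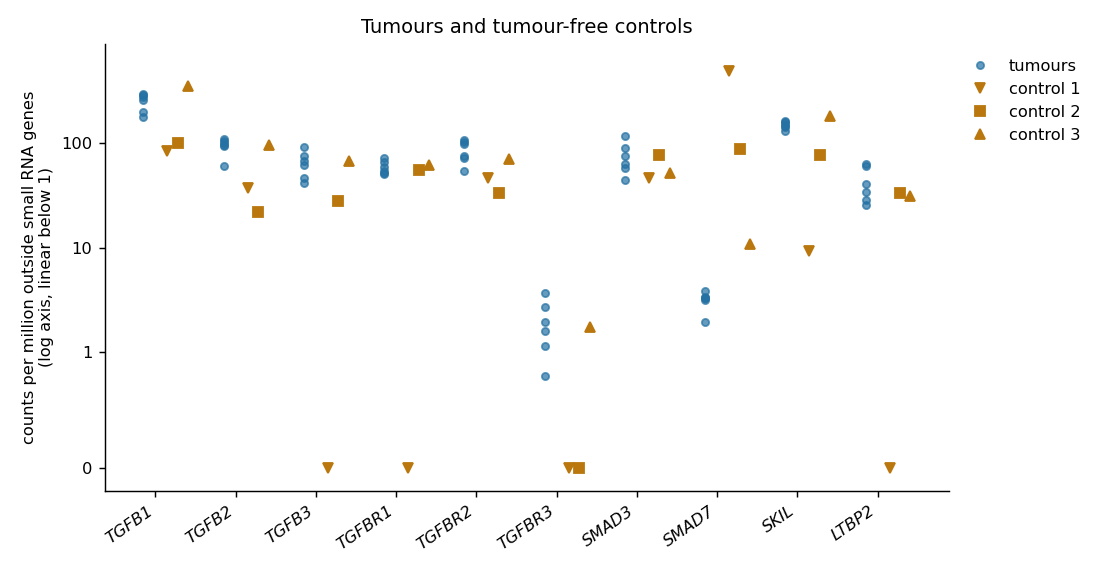
CPM outside structural small RNA genes (y axis, log scale, linear below 1) for the 10 genes in the 6 tumours (circles) and in control replicates 1, 2 and 3 (other symbols); each point is 1 library. SMAD7 is at 1.93 to 3.85 in the tumours and at 495, 88.8 and 10.8 in the controls, while the other genes in control replicate 3 lie near the tumours.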

How the data were processed

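RNA of 10 libraries was sequenced in strand-specific pairs after ribosomal RNA depletion, per the labels' protocols. The authors deposited Salmon estimated counts per gene, not scaled between libraries; Salmon 1.10.3, STAR, DESeq2 and GRCh38 are named in the submitters' processing notes, while their roles, the annotation release and the classes of xenograft reads counted were not given in the sources used here. Names, lengths and 1-based coordinates came from GENCODE release 29, which matched 58261 of 62754 gene IDs. Its strands place every protein-coding gene that overlaps TGFB1 or TGFB3 on the opposite strand, which these libraries separate.

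Estimated counts were rounded and tested with edgeR 4.0.16 in R 4.3.3 (TMM, default filter, two-sided quasi-likelihood test without covariates, Benjamini-Hochberg over all tested genes, threshold 0.05). Recurrent against primary used 6 tumours, and tumours against controls used 9 libraries. The SE was taken as the size of the log2 fold change over the root of F. The culture comparison has no test and took genes with at least 1 CPM on average. DESeq2 1.42.0 and limma 3.58.1 served as alternatives. The fits were tried on simulated data with the same spread for every gene, unlike the deposited data. At a log2 fold change of 1, edgeR recovered 71% of 100 changed genes for recurrent against primary and 34% for tumours against controls. False calls made up 3.93% and 5.19% of the edgeR calls, and 10.6% and 10.8% of the DESeq2 calls.

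Host reads of a library were taken from its counts outside 5190 structural small RNA genes and its graft percentage. Groups follow the treatment label and replicates the order of the records. The 10 genes and the lists were chosen with earlier results of these data known. Named list genes were the 3 with the smallest p in each list plus SMAD2, SMAD4, CCN2, PMEPA1, TGFBI, LTBP1 and THBS1; a further gene of this rule is not reported here. Limits from counts of 0 cover counting error only.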

Additional observations from a re-analysis of the deposited data

Results flagged for a closer look

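Primary replicate 2 stood apart from the other 5 tumours for a pair of the 10 genes by the size of its gap to the next tumour, a rule that flags about 1 in 20 groups by chance. TGFB2 was lowest there at 57.1 CPM, with the next tumour at 85.7 CPM. SMAD7 was lowest there at 1.81 CPM, with the next tumour at 2.88 CPM. TGFBR2, SMAD3 and LTBP2 also had their lowest value of the 6 in this tumour. Among the tumours its RNA integrity number of 7.8 was the lowest and its structural small RNA share of 14.1% the highest, and the part of these in its low values was not tested.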

How the results depend on the processing

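No paired analysis was possible because the labels give no replicate numbers that link samples across groups. Between recurrent and primary tumours, the count of genes called higher was 63 by DESeq2 and 227 with no filter on low counts, against 0 as reported, and 0 to 19 with each tumour left out. The count called lower was 42 by DESeq2, 184 with no filter, 0 by limma-voom and 0 with a graft covariate, against 1 as reported, and 0 to 4 with each tumour left out; the 19 and the 4 came without recurrent replicate 1. TGFBR2 and SMAD3 passed with no filter and under no other alternative, with adjusted p from 0.0272 to 0.887 for TGFBR2 and from 0.0266 to 0.887 for SMAD3 over all alternatives. TGFB1, TGFB2, TGFB3, TGFBR1, TGFBR2 and SMAD3 kept their direction in every alternative but the prefix IL alone, given below, where TGFB3 and TGFBR1 turned. TGFBR3 turned to -0.080 by limma-voom, SKIL to 0.13 and LTBP2 to 0.73 with the graft percentage, and LTBP2 to 0.047 with the RNA integrity number; the cause was not tested. With each tumour left out, TGFB3 ran from -0.65 to -0.022, TGFBR3 from -0.71 to 0.43, SMAD7 from -0.13 to 0.29, SKIL from -0.11 to 0.058 and LTBP2 from -0.47 to 0.33. Every primary tumour and recurrent replicate 1 had a library name with the prefix IL, and the other recurrent tumours had NL. Prefix and group thus largely coincide and cannot be told apart, and the meaning of the prefix is not stated. With the prefix IL alone, which leaves 1 recurrent tumour, only the effect sizes are given. TGFBR2 was at 0.51, SMAD3 at 0.063, TGFB3 at 0.38, TGFB1 at -0.074, TGFBR1 at -0.17 and TGFBR3 at -1.33.

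For tumours against controls, 348 genes were called higher with no filter, and 53 to 1264 with each library left out, against 152 as reported. Genes called lower were 1830 by DESeq2, 248 on library totals and 1777 with no filter, and 315 to 1380 with each library left out, against 737 as reported. Without control replicate 3 the counts were 1264 and 1380, without control replicate 1 they were 74 and 315, and without any 1 tumour the count higher was 53 to 99. SMAD3 turned to -0.024 by DESeq2. With each library left out, TGFB1 ran from -0.040 to 1.09, TGFBR1 from -0.049 to 0.51, SMAD3 from -0.13 to 0.41, TGFB2 from 0.11 to 1.43, TGFB3 from 0.15 to 1.60, SKIL from 0.064 to 1.30 and SMAD7 from -6.86 to -3.66. Against the culture, 1960 genes were lower with the edgeR filter, chosen after seeing the data, against 1207 as reported. With all exons as the length, also chosen later, TGFB3 was at 11.9 RPKM in the tumours. With host counts estimated from control replicates 1 and 2 taken off, SMAD7 was at -0.18 against the culture, in place of 0.81. Low counts of SMAD7 and TGFBR3 limit their precision.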
